A study of Phalaenopsis equestris with 4 samples.

Results

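Assembly component c157580 of the butterfly orchid Phalaenopsis equestris holds 4 of the 221878 assembled contigs, and 17 of the 35 R gene models in the authors' R gene table are assigned to it. Its members were taken by name: the table's rows on contigs of this component, with the component's remaining contigs added from the table of all contigs. They form 2 Trinity genes, which are groups of contigs that the assembler treats as isoforms of one transcribed locus. Trinity gene c157580_g1 has the isoforms c157580_g1_i1 and c157580_g1_i2, and Trinity gene c157580_g2 has c157580_g2_i1 and c157580_g2_i2. The study sequenced RNA from root, stem, leaf and flower of plants aged 3 years, with 1 library for each tissue. The labels give the same species and age to all 4 libraries and name no treatment, genotype or number of plants. Expression is given as FPKM, by its usual definition fragments scaled to transcript length and to the size of the library. With 1 library per tissue there is no spread between replicates. Differences are therefore described by size alone, called where they reach 2-fold on the FPKM + 1 scale, and carry no p-value.

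R genes, or plant disease resistance genes, encode receptors that let a plant cell recognise molecules of a pathogen and start a defence response. Most known R proteins are intracellular receptors with a nucleotide-binding domain and leucine-rich repeats, the latter often taking part in recognition. Such genes commonly lie in the genome as clusters of similar copies, and plants keep many of them at low levels until they are needed. The tables do not say which receptor class each gene model encodes.

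The R gene table assigned 16 gene models to the single contig c157580_g2_i2, which is 45.7% of all models in the table. The remaining model of the component, PEQU_18392, was assigned to c157580_g1_i1. No other contig in the table stood for more than 2 models: 12 of the other 15 contigs had 1 model each and 3 had 2. The level of c157580_g2_i2 is therefore one measurement shared by 16 models and cannot be divided among them. Neither c157580_g1_i2 nor c157580_g2_i1 was named in the R gene table.

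The highest-scoring match to c157580_g2_i2 was that of PEQU_01621, with a bit score of 1737 in the authors' deposited table. A bit score measures the strength of a sequence alignment and grows with its length and identity. In the authors' deposited table PEQU_41063 followed at 1673, PEQU_41490 at 1552, PEQU_37387 at 1524 and PEQU_28901 at 1522. The weakest of the 16 was PEQU_20802 at 1015, after PEQU_18351 at 1057. The median over the 16 was 1348, and 6 models lay under 1200. The 16 models took 15 distinct scores, since PEQU_18353 and PEQU_18929 shared the score of 1158. PEQU_18392 had a bit score of 985 on c157580_g1_i1, below every match to c157580_g2_i2. All 17 matches have an e-value listed as 0 in the authors' deposited table, so the e-value does not rank them. The 18 models on other contigs spanned bit scores from 549 to 6282, with a median of 1172.5, so the matches to c157580 lay within the range of the table.

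**Figure D1:**
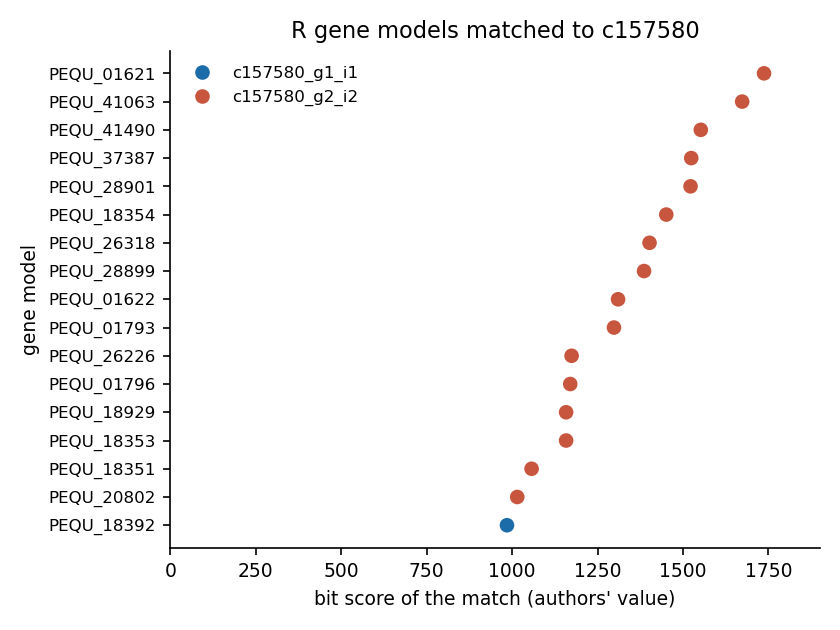
Bit score of the match (x axis, the authors' value) for each of the 17 R gene models assigned to c157580 (y axis), coloured by contig. The 16 models on c157580_g2_i2 spread from 1015 to 1737, and PEQU_18392 on c157580_g1_i1 is the lowest at 985.

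Several of the models have close identifier numbers. PEQU_01621 and PEQU_01622 differ by 1, as do PEQU_18353 and PEQU_18354, PEQU_18351 and PEQU_18353 differ by 2, as do PEQU_28899 and PEQU_28901, and PEQU_01793 and PEQU_01796 differ by 3. Among the 5 pairs, each with both models on c157580_g2_i2, the bit scores were unequal, for example 1737 for PEQU_01621 and 1310 for PEQU_01622. The tables do not say whether close numbers mean neighbouring genes.

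Contig c157580_g1_i1, the contig of PEQU_18392, was at 49.4 FPKM in the root library, at 34.7 in that of stem, at 25.3 in leaf and at 5.72 in flower. As deposited, root was the highest library and flower stood well below the other tissues, which lay within 2-fold of each other on FPKM + 1. On the log2(FPKM + 1) scale flower differed from root by -2.91, from stem by -2.41 and from leaf by -1.97, so all 3 differences from flower passed 2-fold. The neighbours in the order above flower did not pass 2-fold: root and stem differed 1.41-fold, and stem and leaf 1.36-fold, on FPKM + 1. Root and leaf, at 1.92-fold, also stayed below it. The place of leaf depended on scaling: median-of-ratios factors gave a leaf minus root of -1.77 and equal sums of FPKM one of -3.82, and in the latter setting flower was above leaf by 1.13 on the log2(FPKM + 1) scale. Flower remained past 2-fold below root and stem in both settings. The order root, stem, leaf, flower was found in 5.24% of those 86757 contigs whose mean FPKM reached 1.

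Contig c157580_g2_i2, shared by the 16 models, was at 29.2 FPKM in leaf, followed by 17.6 in stem, 13.1 in root and 11.5 in flower. It had a narrower range, with leaf highest, flower lowest, and root only slightly above flower. Flower and root differed by -0.18 on the log2(FPKM + 1) scale, against -2.91 for c157580_g1_i1. Leaf exceeded root 2.14-fold and flower 2.42-fold on FPKM + 1, and the remaining 4 pairs of tissues stayed under 2-fold. No neighbours in the order of its levels (flower, root, stem, leaf) differed by 2-fold. The order leaf, stem, root, flower was found in 6.61% of the same contigs. The lead of leaf depended on how libraries were scaled: with median-of-ratios factors leaf differed from stem by -0.09 on the log2(FPKM + 1) scale, and none of the 6 pairs passed 2-fold.

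The remaining isoform of the first Trinity gene, c157580_g1_i2, was at 10.6 FPKM in leaf, but at 2.28 in stem, 1.45 in root and 1.30 in flower. As deposited, leaf alone stood apart. On the log2(FPKM + 1) scale it exceeded root by 2.24 and stem by 1.82, and flower differed from it by -2.33, while root, stem and flower stayed within 2-fold of each other. Median-of-ratios factors gave a lead of leaf over root of 1.54, but under equal sums of FPKM leaf minus root was -0.10, with no pair of tissues past 2-fold. Contig c157580_g2_i1 was listed at 0 in all 4 libraries. That was so for 14806 contigs, or 6.67% of all, and 4185 of these had an isoform above 0 in the same Trinity gene, as c157580_g2_i1 has in c157580_g2_i2.

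**Figure D2:**
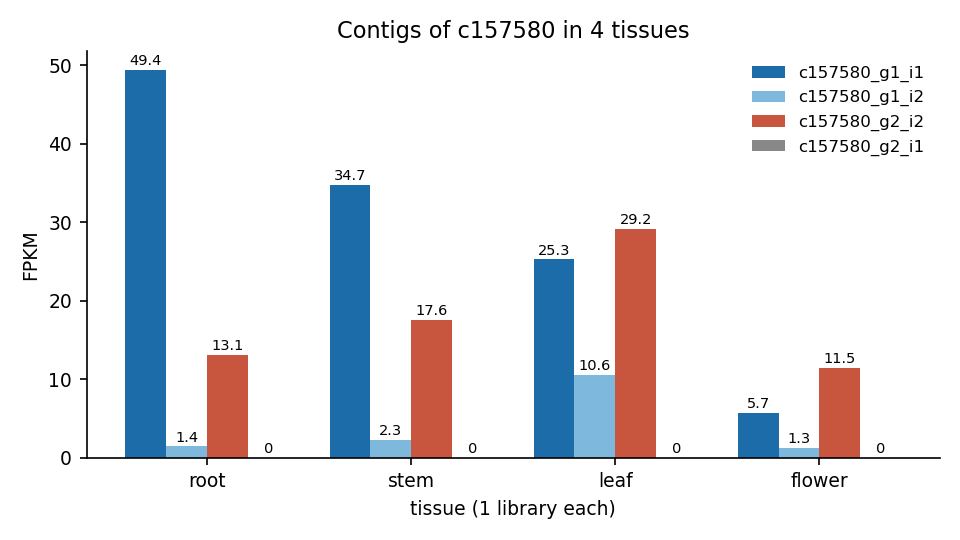
FPKM (y axis) of the 4 contigs of c157580 in the 1 library of each tissue (x axis), with the value over each bar; there are no replicates and no error bars. c157580_g1_i1 goes from 49.4 in root to 5.72 in flower, c157580_g2_i2 is highest in leaf at 29.2, and c157580_g2_i1 is listed at 0 throughout.

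The summed FPKM was 7179834 in leaf, compared with 895717 for root, 695751 for flower and 684575 for stem. Read totals are not in the tables, but ratios of low values between libraries cluster at ratios of small whole numbers of reads. From these clusters, a contig at equal FPKM rested on 0.0604 times as many reads in leaf as in root, on 1.58 times as many in stem and on 1.77 times as many in flower. By this estimate c157580_g1_i1 had in leaf 3.09% of its root reads, c157580_g2_i2 13.4% and c157580_g1_i2 44.2%. The leaf values of the component, although high in FPKM, thus rest on the fewest reads. An alternative reading of the same clusters doubles the leaf ratio to 0.121. The number of reads behind each contig is unknown, since contig lengths are not in the tables, so no counting interval is given.

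Within their own libraries, c157580_g1_i1 and c157580_g2_i2 were among the more abundant contigs. Of all contigs above 0, 98.9% lay below c157580_g1_i1 in root and 98.5% in stem, compared with 85.7% in leaf and 86.4% in flower. For c157580_g2_i2 these shares ran from 87.5% in leaf through 91.6% in flower and 94.0% in root to 96.6% in stem. The base of these shares differs by library: among single-contig Trinity genes, 29634 were above 0 for leaf, against 115802 for root. By rank, c157580_g1_i1 stood at 1969 in root and 15800 in flower, while c157580_g2_i2 stood at 10303 in root and 9720 in flower. The leaf rank of c157580_g2_i2 was 7903, behind only its stem rank of 5903. That of c157580_g1_i1 was 9001, ahead of flower. Leaf thus had the lowest share for both contigs, but for neither the last rank. These ranks do not depend on how libraries are scaled to each other.

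Of the 3 contigs of the component whose mean FPKM reached 1, 1 was at least 2-fold lower in flower than in root, c157580_g1_i1. Over all 86757 contigs past that mean, 51.3% were. Against stem the same single contig was at least 2-fold lower in flower, beside 34.3% of all contigs. Against leaf all 3 were at least 2-fold lower in flower, beside 35.2% of all contigs. Leaf was at least 2-fold above root in c157580_g1_i2 and c157580_g2_i2, beside 28.1% of all contigs, and above stem in c157580_g1_i2 alone, beside 27.3%. At 4-fold, 1 of the 3 was lower in flower than in leaf, beside 16.7% of all contigs, 1 was higher in leaf than in root, beside 13.5%, and 0 were higher in leaf than in stem, beside 10.6%. None of the 3 passed 2-fold between stem and root, where 12% of all contigs were higher in stem and 27.7% lower. The flower library was the lowest of the 4 for all 3 contigs as deposited, beside 32.4% of all contigs. Leaf was the highest for 2, beside 38.4%, and root for 1, beside 41.6%. With sums of FPKM set equal, leaf was instead the lowest library for all 3, and no share over all contigs was taken in that setting. Flower then remained below root and stem for c157580_g1_i1, while c157580_g2_i2 was 0.17 log2 units higher in flower than in root.

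Ratios within a library are free of scaling between libraries, and there both R gene contigs exchanged their lead. The FPKM of c157580_g1_i1 was 3.77 times that of c157580_g2_i2 in root and 1.97 times in stem, but 0.867 times in leaf and 0.499 times in flower. The PEQU_18392 contig was thus the more abundant in root and stem, the contig of the 16 models in flower, and in leaf both were nearly level. From root to flower the ratio spanned 2.92 log2 units, or 7.55-fold, and both ends of that span lie outside the leaf library. As a share of the summed FPKM of the component, c157580_g1_i1 made up 77.2% in root and 63.6% in stem, against 38.9% in leaf and 30.9% in flower. The shares of c157580_g2_i2 ran the other way, from 62.0% in flower and 44.8% in leaf to 32.2% in stem and 20.5% in root.

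Summed over isoforms, c157580_g1 was at 50.8 FPKM in root, at 37.0 in stem, at 35.9 in leaf, and at 7.03 in flower. As deposited, flower again stood below the other tissues. With sums of FPKM set equal, flower remained below root and stem but was 0.96 log2 units above leaf. Since c157580_g2_i1 is listed at 0, the sum of c157580_g2 equals c157580_g2_i2. The ratio of both sums, c157580_g1 to c157580_g2, was 3.88 for root, 2.10 for stem, 1.23 for leaf and 0.613 for flower. With the second isoform included, c157580_g1 was therefore above c157580_g2 in leaf, the reverse of the order of the single contigs there. The log2 ratio of the sums ranged over 2.66 units. Among 1182 components of 2 Trinity genes that were each at 1 FPKM or more in every tissue, 15.1% ranged at least as far and the median range was 1.41. Without leaf, 7.53% ranged at least as far and the median was 0.96. The leading Trinity gene differed between tissues in 45.3% of these components, so an exchange of lead as such was common.

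The makeup of c157580_g1 differed between tissues as well. Isoform c157580_g1_i2 held 2.85% of the sum of its Trinity gene in root and 6.16% in stem, but 29.5% in leaf and 18.5% in flower. It was a small part in root and stem and a larger one in leaf and flower, and c157580_g1_i1 led in every library. In flower that larger share came with 1.30 FPKM of c157580_g1_i2, close to the 1.45 FPKM in root, beside a much lower c157580_g1_i1. In leaf it came with 10.6 FPKM of c157580_g1_i2 as deposited, a level whose place against root depended on scaling, as given above. The share ranged over 26.7 percentage points, or 15.7 without leaf. Of 3525 Trinity genes of 2 contigs with a sum of at least 1 FPKM in every tissue, 22.7% had a range at least as wide, and 24.8% did so without leaf. The median range was 13.5 percentage points with leaf and 7.92 without. One isoform led in all 4 tissues in 52.7% of these Trinity genes, as in c157580_g1.

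**Figure D3:**
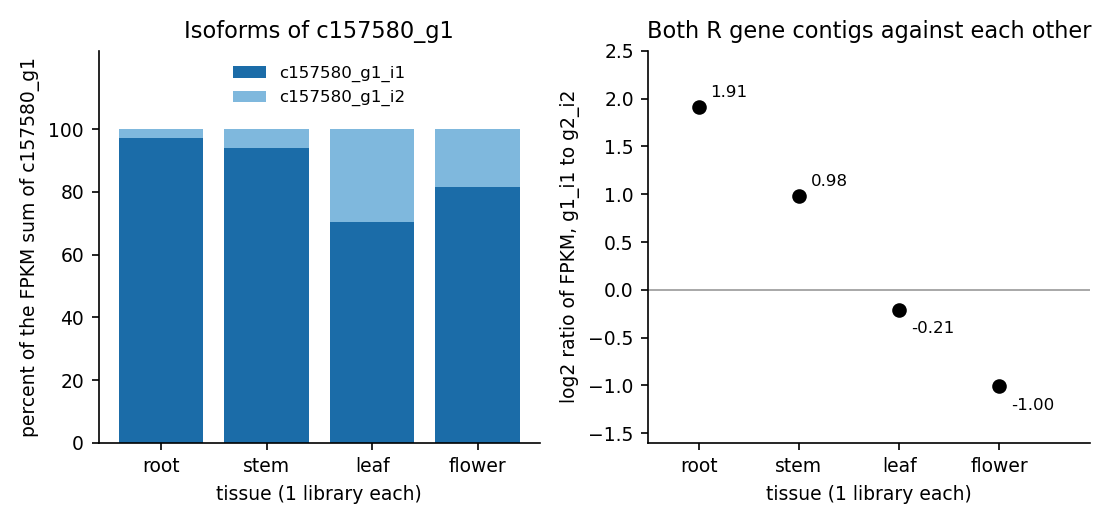
Left, percent of the FPKM sum of c157580_g1 held by each of its isoforms (y axis) in each tissue (x axis). Right, log2 ratio of the FPKM of c157580_g1_i1 to that of c157580_g2_i2, with 1 point per library and a line at equal levels. The share of c157580_g1_i2 is 2.85% in root and 29.5% in leaf, and the ratio goes from 1.91 in root to -1.003 in flower.

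**Figure D4:**
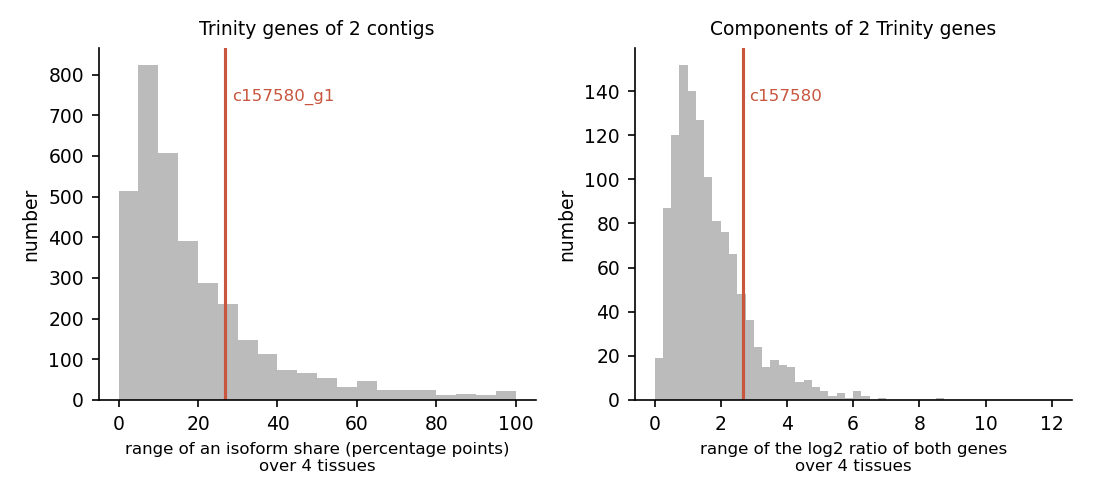
Histograms of the range over the 4 tissues of an isoform's share in 3525 Trinity genes of 2 contigs (left, percentage points) and of the log2 ratio of both sums in 1182 components of 2 Trinity genes (right), each with the number on the y axis. The vertical lines mark c157580_g1 at 26.7 percentage points and c157580 at 2.66, both to the right of the bulk but with 22.7% and 15.1% ranging at least as far.

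The other R gene contigs gave a frame for both members. Flower was the lowest library for 14 of the other 15, beside 32.4% of all contigs, as for both of c157580. Leaf was the highest for 10 of the 15, beside 38.4%. These counts were 13 and 5 with median-of-ratios factors and 1 and 0 with sums of FPKM set equal. Flower was below root in 15 of the 15 as deposited and with median-of-ratios factors, and in 14 with equal sums. The share of all contigs with flower below root by any amount was not taken. As deposited it cannot be under the 51.3% that were at least 2-fold lower, so this direction is not read as particular to R genes. The median difference between flower and root over the 15 was -1.17 on the log2(FPKM + 1) scale, from -3.69 to -0.15, and 10 of the 15 were at least 2-fold lower in flower, beside 51.3% of all contigs. That count was 7 with equal sums. Members of c157580 stood near opposite ends of that range. When the 17 R gene contigs were ordered from the most negative difference between flower and root, c157580_g1_i1 was number 3 and c157580_g2_i2 number 16, with the same places under median-of-ratios factors and places 4 and 17 with equal sums. Between leaf and root the 15 had a median of 0.53, beside 1.10 for c157580_g2_i2 and -0.94 for c157580_g1_i1. Leaf was at least 2-fold higher in 4 of the 15 and at least 2-fold lower in 3, beside 28.1% and 38% of all contigs. These counts were 1 and 3 with median-of-ratios factors and 0 and 14 with equal sums. Equal sums divide every leaf value by 3.04 and every root value by 0.379. Shares over all contigs were taken as deposited only, so no count under another scaling has one beside it. With a mean of 28.8 FPKM, c157580_g1_i1 had the third highest mean of the 17, and c157580_g2_i2, at 17.8, the fifth.

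**Figure D5:**
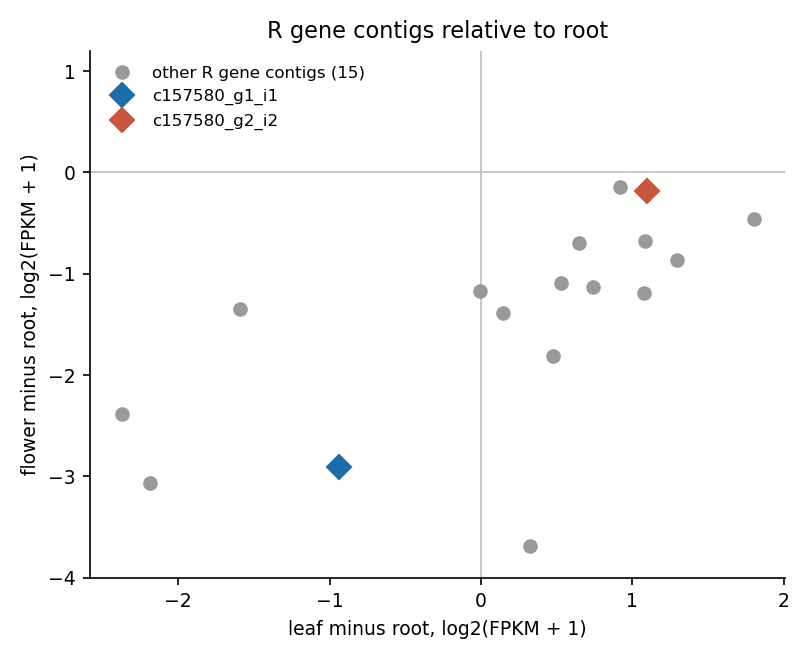
Difference between flower and root (y axis) against that between leaf and root (x axis), both on the log2(FPKM + 1) scale, for the 17 R gene contigs, 1 point each. c157580_g2_i2 lies at 1.10 and -0.18 and c157580_g1_i1 at -0.94 and -2.91. No contig is higher in flower than in root as deposited, while 2 are with sums of FPKM set equal. Of all contigs whose mean FPKM reached 1, 51.3% were at least 2-fold lower in flower than in root as deposited. The share lower by any amount was not taken.

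Both contigs together made up 21.0% of the summed FPKM of the 17 R gene contigs in root and 23.4% in stem, then 19.2% in flower and 13.4% in leaf. Their parts within it differed by tissue. Contig c157580_g1_i1 alone held 16.6% in root and 15.5% in stem, but 6.21% in leaf and 6.41% in flower, whereas c157580_g2_i2 held 12.8% in flower, 7.86% in stem, 7.17% in leaf and 4.41% in root. The joint share in flower was thus near that in root, with the larger part taken by the other contig.

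Likeness of tissue pattern was measured as the Euclidean distance over the 4 tissues on log2(FPKM + 1), after each contig's own mean was removed. By this measure c157580_g1_i1 and c157580_g2_i2 lay 2.09 log2 units apart. Among the other R gene contigs the nearest to c157580_g2_i2 was c146166_g1_i1, the contig of PEQU_42057, at a distance of 0.22. That contig was lower throughout, with 5.87 FPKM in leaf, then 3.12 in stem, 2.63 in root and 2.29 in flower. It was followed by c156446_g1_i2 at 0.54 and c157564_g1_i1 at 0.66. No other R gene contig came as near to c157580_g1_i1: the nearest, c157534_g1_i4, lay at 1.002, with 22.7 FPKM in root, then 8.65 in stem, 4.21 in leaf and 1.84 in flower, followed by c157032_g2_i1 at 1.24 and c156935_g8_i1 at 1.33.

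Over the 23494 contigs outside the component with a mean of at least 5 FPKM, the nearest to c157580_g2_i2 were c144182_g2_i1 at a distance of 0.018, c152807_g5_i2 at 0.054 and c150960_g1_i1 at 0.057. The first of these was at 14.6 FPKM in leaf, then 8.59 in stem, 6.27 in root and 5.34 in flower. The nearest to c157580_g1_i1 were c154846_g12_i1 at 0.054, c155593_g2_i3 at 0.10 and c206029_g1_i1 at 0.13, the first with 66.8 FPKM in root, 48.9 in stem, then 34.0 in leaf and 7.99 in flower. A distance of at most 0.5 was met by 977 of these contigs for c157580_g2_i2, or 4.16%, and by 136 for c157580_g1_i1, or 0.579%. These contigs have no names in the tables.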

How the data were processed

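Total RNA of 4 tissues was sequenced on an Illumina HiSeq, 1 library each, per the labels' protocols and the study's design text. That text gives a de novo assembly by the authors with Trinity r2013-02-25, keeping contigs of at least 200 nucleotides. Per the submitters' processing notes, edgeR and DESeq were named tools, with no role stated. For the mapper and the FPKM estimator, nothing is stated in these sources. The deposited FPKM values, e-values and bit score of each match were used as the authors gave them, per the file headers. The FPKM of all 17 R gene contigs were equal in both deposited tables. Similar gene copies can collapse into 1 contig in a de novo assembly, and isoforms share reads.

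Differences were taken as log2(FPKM + 1), which understates those of low contigs, with a 2-fold rule among contigs of mean FPKM of at least 1. Relative reads at equal FPKM came from single-contig Trinity genes at 0.2 to 3 FPKM in root. Log2 ratios to root were set against a ladder of ratios of up to 3 reads. Leaf had under 0.5 times as many detected contigs as root and was given another ladder. It held 1 leaf read to up to 6 root reads, and up to 3 leaf reads to 1 root read. That choice was made after seeing the values. The procedure was tested on simulated libraries with depths set close to the estimates, which cannot decide between both leaf ratios given above. The fold rule was tested on simulated data as well. Alternatives were other pseudocounts, filters, folds and bit scores, median-of-ratios factors from 24591 contigs above 1 FPKM in every library, and equal sums. Named were all members, and the 3 nearest contigs in each pool. The members and lists were chosen with earlier results of these data known. None of the 17 gene models matched an identifier of the RefSeq gene table, so coordinates were not used here. Python 3.11.15, pandas 2.3.3 and numpy 2.4.6 were used.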

Additional observations from a re-analysis of the deposited data

How the results depend on the processing

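No paired analysis was possible because each tissue has 1 library. Most results that changed did so with scaling between libraries. Shares over all contigs were taken only with the values as deposited, on FPKM + 1 and for a mean FPKM of at least 1. The counts below under other scalings, pseudocounts or filters therefore have none beside them. The median-of-ratios factor of leaf was 0.87 log2 units above that of root. Dividing by these factors therefore lowered leaf relative to root.

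With those factors c157580_g2_i2 was lower in leaf than in stem, at -0.092 on the log2(FPKM + 1) scale. The pairs of tissues past 2-fold went from 2 to 0 for c157580_g2_i2 and from 3 to 5 for c157580_g1_i1. Of the contigs, 1 was at least 2-fold higher in leaf than in root and 1 lower, and 1 was lower in leaf than in stem. By highest library, 1 contig was highest in stem and 1 in leaf. Of the Trinity gene sums, 1 was highest in stem and 0 in leaf.

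With sums of FPKM set equal, c157580_g2_i2 reversed: flower minus root was 0.17, flower minus leaf 1.91, leaf minus root -1.75 and leaf minus stem -2.54. For c157580_g1_i1 flower minus leaf was 1.13, and 5 pairs passed 2-fold. Flower was at least 2-fold above leaf in 2 contigs and below it in 0. Leaf was at least 2-fold above root in 0 and below it in 2, and above stem in 0 and below it in 2. By highest library 2 contigs were highest in stem and 0 in leaf, and by lowest 3 were lowest in leaf and 0 in flower. Of the Trinity gene sums 1 was highest in stem, 0 in leaf, 2 lowest in leaf and 0 in flower.

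With a pseudocount of 5 FPKM, 1 pair passed for c157580_g2_i2, and 1 contig was at least 2-fold higher in leaf than in root. With a mean of at least 5 FPKM, that count was 1, 0 contigs were higher in leaf than in stem and 1 was highest in leaf, since fewer contigs enter. At 4-fold, 1 contig was lower in flower than in leaf, 1 higher in leaf than in root and 0 higher in leaf than in stem. The shares of all contigs were 16.7%, 13.5% and 10.6% in that order. Without the leaf library, an alternative added after seeing the data, the isoform share ranged over 15.7 percentage points. The log2 ratios within the component kept their ranges of 2.92 and 2.66. Both ranges have their ends in root and flower, so leaving out leaf could not change them. The difference between flower and root of c157580_g1_i1 kept its direction and stayed past 2-fold in all 4 alternatives. A bit score of at least 1000 kept 16 of the 17 models. Why leaf differs with scaling was not tested, and the read numbers behind the leaf values are unknown.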

Other observations

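Of the other R gene contigs, 7 belong to Trinity genes with several isoforms. Contig c157534_g1_i4, 1 of 4 isoforms, held 12.8% of the FPKM sum of its Trinity gene in root, against 27.7% in stem, 34.0% in leaf and 21.4% in flower. That sum was 177.7 FPKM in root and 8.61 in flower. In each library, most of the level of this R gene Trinity gene thus lay on isoforms outside the R gene table. Contig c157395_g2_i2, 1 of 5 isoforms, stayed between 21.7% and 25.6%, and c156446_g1_i2, also 1 of 5, between 22.1% and 26.7%. Contig c157073_g2_i3, 1 of 3 isoforms, held 33.6% in root and 31.9% in stem, but 14.3% in leaf and 22.6% in flower, the same tissue order as the share of c157580_g1_i1 in its Trinity gene, at 1.12 FPKM of summed level in leaf and 0.659 in flower. Contig c157032_g2_i1, also 1 of 3, ranged most, from 43.3% in flower through 45.7% in stem and 57.6% in root to 100% in leaf. Its Trinity gene summed to 3.38 FPKM in leaf, the library with the fewest reads at equal FPKM. Contig c157073_g4_i1, 1 of 2, held 72.3% in root and 100% elsewhere, at sums of 3.42 FPKM in stem, 0.766 in leaf and 1.09 in flower. Whether isoforms at 0 beside such low sums were absent or undetected was not tested. Contig c157564_g1_i1 held all of its Trinity gene's FPKM in each library, with its second isoform listed at 0, as c157580_g2_i1 was beside c157580_g2_i2.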
